A study of Mus musculus with 12 samples.

Results

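The unfolded protein response genes described here are a set of 41 genes (42 listed symbols, of which Vimp is an older name of Selenos). They were chosen by name, as chaperones, folding enzymes, stress sensors, transcription factors and degradation factors of the endoplasmic reticulum (ER), with no threshold on their values. A named probe existed for 40 of them, among 19057 named genes on the array, with 76 probes in all, and Dnajb11, an ER co-chaperone, had none. A gene was tested if a probe of it was detected, at a detection p-value under 0.01, throughout the 3 arrays of any group, and 36 of the 41 were, among 8875 genes tested in all. Of the 36, 34 were detected on all 12 arrays.

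Secretory cells fold their products in the ER, and unfolded protein there is sensed by IRE1 (encoded by Ern1), PERK (encoded by Eif2ak3) and ATF6. IRE1 splices the mRNA of the transcription factor XBP1, PERK slows translation while raising translation of ATF4, and ATF6 is cut to release a transcription factor. Their targets include chaperones, disulfide enzymes, and the machinery of ER-associated degradation (ERAD), which returns misfolded protein to the cytosol, and beta cells of the pancreatic islet use this system heavily because they make proinsulin in bulk.

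RNA of islets, isolated from the pancreas with collagenase, was hybridised to Illumina mouse beadchips, with 3 arrays in each of 4 groups: SHPKO on western diet, WT on western diet, SHPKO on chow and WT on chow. SHPKO mice lack SHP (small heterodimer partner), a nuclear receptor without a DNA-binding domain that is encoded by Nr0b2, and WT mice carry it. All mice were male, of the strain C57Bl/6Hsd and 10 months old, and the diets ran for 6 months from an age of 4 months. Each group's RNA came as a pool from 5 to 9 mice and was profiled in triplicate. Whether the triplicates share 1 pool is not said outright, so every p-value measures the spread between arrays, which may be technical.

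None of the 12 arrays detected Nr0b2 (detection p-values 0.299 to 0.761), so its probe does not check the genotype labels. From 13821 to 16101 probes were detected per array, and arrays correlated at 0.982 to 0.994 within groups and 0.950 to 0.983 between them. Of the beta cell markers, 10 were tested and Pcsk1, a proinsulin convertase, was not detected. The insulin gene Ins2 stood at 14.54 ± 0.03 in SHPKO on western diet, 14.56 ± 0.06 in WT on western diet, 14.54 ± 0.09 in SHPKO on chow and 14.53 ± 0.08 in WT on chow (log2 signal, mean ± SD, n = 3 arrays). Transcripts of acinar cells, which make digestive enzymes, were present too and were lower in SHPKO islets for 28 of 29 markers on either diet. Their summed signal, unlogged, was 36426 to 40768 in SHPKO on western diet, 234067 to 256158 in WT on western diet, 38296 to 43146 in SHPKO on chow and 304513 to 319906 in WT on chow. In such bulk samples, fewer cells of a type and less RNA per cell cannot be told apart.

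Promoter sequences are shown for the called members whose changes carry the results and for Hspa5, the standard reporter of the pathway, because the ER stress response element (ERSE), bound by ATF6 and XBP1 together with NF-Y, is spelled out in several of them. Each sequence is the sense strand from RefSeq, build GRCm38.p6, and holds the 200 bases before the annotated gene start. Capitals mark the CCAAT and CCACG boxes of the ERSE, or their reverse complements ATTGG and CGTGG. In Sdf2l1, which held no full ERSE, they mark every copy of these boxes. For Trib3, 30 bases just after the annotated start are shown, and capitals mark an element read by ATF4 with C/EBP factors.
Hspa5 (chr2:34771890-34772089, plus strand): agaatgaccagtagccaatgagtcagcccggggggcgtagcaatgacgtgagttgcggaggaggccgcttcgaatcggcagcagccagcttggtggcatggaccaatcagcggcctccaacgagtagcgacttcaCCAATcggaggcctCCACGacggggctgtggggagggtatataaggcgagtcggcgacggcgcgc
Calr (chr8:84846932-84847131, minus strand): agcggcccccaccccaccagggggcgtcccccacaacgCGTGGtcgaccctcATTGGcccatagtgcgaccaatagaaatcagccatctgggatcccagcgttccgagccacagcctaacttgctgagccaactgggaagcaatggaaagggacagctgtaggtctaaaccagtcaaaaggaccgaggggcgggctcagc
Creld2 (chr15:88819446-88819645, plus strand): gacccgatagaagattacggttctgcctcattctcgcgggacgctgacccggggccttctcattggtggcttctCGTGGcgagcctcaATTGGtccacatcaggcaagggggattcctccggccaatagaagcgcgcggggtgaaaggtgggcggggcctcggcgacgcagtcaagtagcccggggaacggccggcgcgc
Derl3 (chr10:75893198-75893397, plus strand): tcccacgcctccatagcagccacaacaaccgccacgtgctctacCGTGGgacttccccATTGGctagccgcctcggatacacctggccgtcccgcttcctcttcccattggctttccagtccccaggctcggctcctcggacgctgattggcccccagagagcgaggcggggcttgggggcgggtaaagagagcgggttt
Sdf2l1 (chr16:17132384-17132583, minus strand): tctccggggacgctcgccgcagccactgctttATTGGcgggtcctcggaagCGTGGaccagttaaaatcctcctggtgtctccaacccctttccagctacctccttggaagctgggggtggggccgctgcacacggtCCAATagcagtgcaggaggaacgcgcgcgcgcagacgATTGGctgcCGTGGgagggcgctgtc
Trib3 (chr2:152344028-152344057, minus strand): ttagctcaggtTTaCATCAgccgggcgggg

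Windows of 300 bases (250 before and 50 after the start) were found for 35 of the 41 genes, all but Hyou1, Manf, Atf6, Ppp1r15b, Derl1 and Sec61a1. The full ERSE, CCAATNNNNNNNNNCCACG on either strand, was found in 10 of the 35 (28.6%), against 0.119% of all 32851 windows in the table. The 10 were Hspa5, Calr, Derl3, Hsp90b1, Canx, Pdia6, Ero1b, Dnajc3, Creld2 and Syvn1. ERSE-II, ATTGGNCCACG, was found in Herpud1 and Dnajb11 (5.71%, against 0.0365% of all windows). The C/EBP-ATF element, TGATGNAA, was found in Chac1, Trib3, Asns and Herpud1 (11.4%, against 3.97%), and the UPRE core TGACGTGG, another XBP1 and ATF6 element, in 0 of 35 (0.676% of all windows). ERSE and ERSE-II share the CCACG box, and a match describes letters in the window, not binding. Of the 6 members called in at least 1 comparison below, Calr, Creld2 and Derl3 held the ERSE, Trib3 held the C/EBP-ATF element, and Sdf2l1 and Edem1, whose window does not lie at its annotated start, held no full match to any of the 4.

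**Figure D1:**
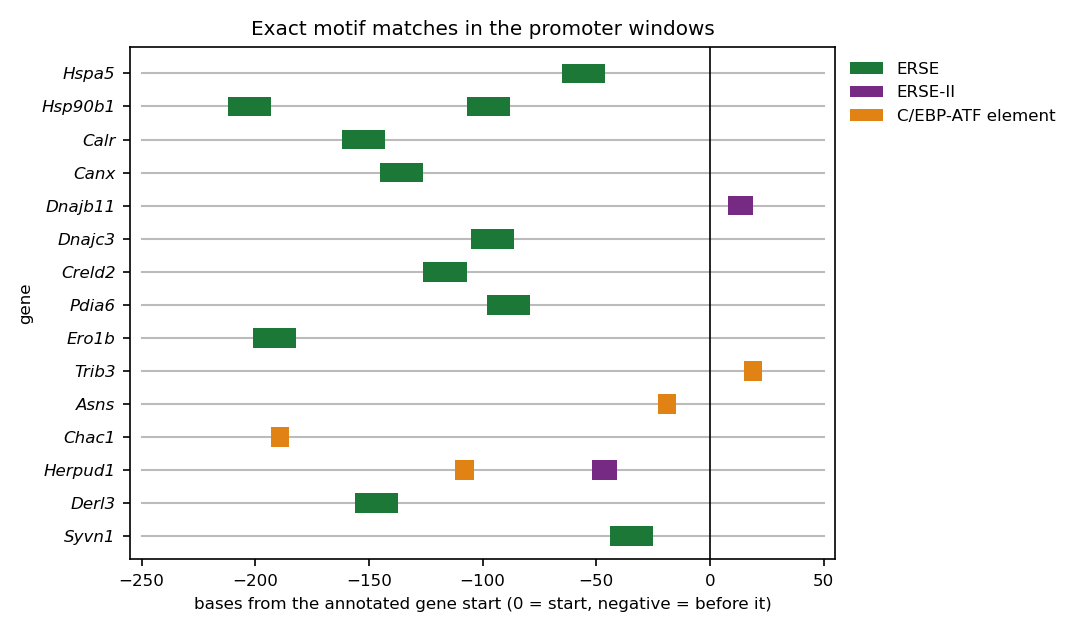
Positions of exact matches to the ERSE, ERSE-II and C/EBP-ATF element (coloured boxes) along the promoter windows of the 15 members that hold 1, in bases from the annotated start. The ERSE boxes all lie before the start, between -212 and -26, while the Trib3 and Dnajb11 matches lie just after it.

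Western diet against chow in WT islets asks what the diet did to the response where SHP is present. In WT mice 5 of the 36 members were lower on western diet and 0 were higher, at an adjusted p below 0.05 in limma and at least 1.5-fold, where 1.48% of all genes tested were lower and 1.25% higher. The 5 were Derl3 and Edem1 of ERAD, the chaperone partners Sdf2l1 and Creld2, and Trib3, a target of ATF4. Edem1 was tested only because it was detected in WT on chow, the group where it is high. Of the 36 members, 15 had an unadjusted p below 0.05 in either direction. The share of all genes below that unadjusted p was not counted, here or in the comparisons and lists that follow. These counts are therefore not read as an excess. The median difference over the members was -0.15 against 0.02 over all genes (log2 signal), and 27 of the 36 lay below 0, as did 46.2% of all genes. The arrays of the diets did not overlap for 13 members that were lower (12.2% of all genes) and 2 that were higher (12.9% of all genes). Without the members that passed the filter through 1 group only, Edem1 and Atf6, 4 of 34 were called lower. Of those 34, 14 had an unadjusted p below 0.05, and arrays did not overlap for 12 lower and 2 higher ones.

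Western diet against chow in SHPKO islets asks the same where SHP is absent. Of the 36 members, 1, the lectin chaperone Calr, was lower and 0 were higher, where 1.09% of all genes were lower and 2.2% higher, and 5 members had an unadjusted p below 0.05. The median difference of the members was -0.03 against 0.02 over all genes, and 21 of the 36 lay below 0 (45.8% of all genes). Sdf2l1 joined Calr where the adjusted p alone was used, 2 lower members against 2.22% of all genes. Arrays did not overlap for 5 lower members (12.1% of all genes) and 2 higher ones (15.1%). One of the higher ones was Atf6, tested only through SHPKO on western diet, the group where it is high. Without the members that passed through 1 group only, arrays did not overlap for 5 lower and 1 higher of 34, and 4 had an unadjusted p below 0.05.

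On western diet, SHPKO against WT gave 1 member higher, Derl3, and 0 lower, where 1.95% of all genes were higher and 1.22% lower, with 9 members at an unadjusted p below 0.05. On that diet 8 of the 36 members lay below 0, against 46.3% of all genes, and their median was 0.14 against 0.02 over all genes. By the adjusted p alone 4 members were higher, Derl3, Trib3, Creld2 and the isomerase Pdia6, against 3.09% of all genes. The arrays of the genotypes did not overlap for 13 higher members (13.7% of all genes) and 0 lower ones (10.7%). These include Atf6, tested only through SHPKO on western diet, the group where it is high. Without the members that passed through 1 group only, arrays did not overlap for 12 higher of 34, and 8 had an unadjusted p below 0.05. On chow, SHPKO against WT gave 1 member lower, Edem1, which was tested only because it was detected in WT on chow, the group where it is high, and 0 higher, where 1.21% of all genes were lower and 0.901% higher, and 8 members had an unadjusted p below 0.05. The median there was 0.01 for the members and for all genes, 17 of the 36 lay below 0 (48.5% of all genes), and arrays did not overlap for 4 higher members (9.78%) and 5 lower ones (7.34%). The difference between the diet effects (that in SHPKO minus that in WT) was called for 1 member, Derl3, as higher, and for 0 as lower, where 1.49% of all genes were called higher and 0.586% lower. Of the 36, 8 had an unadjusted p below 0.05 and 8 lay below 0 (49.5% of all genes). Of the 34 that passed through more than 1 group, 7 had an unadjusted p below 0.05. These comparisons share arrays in pairs, since each group enters more than 1 of them, so they do not support each other. Below, differences are given side by side for each member.

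**Figure D2:**
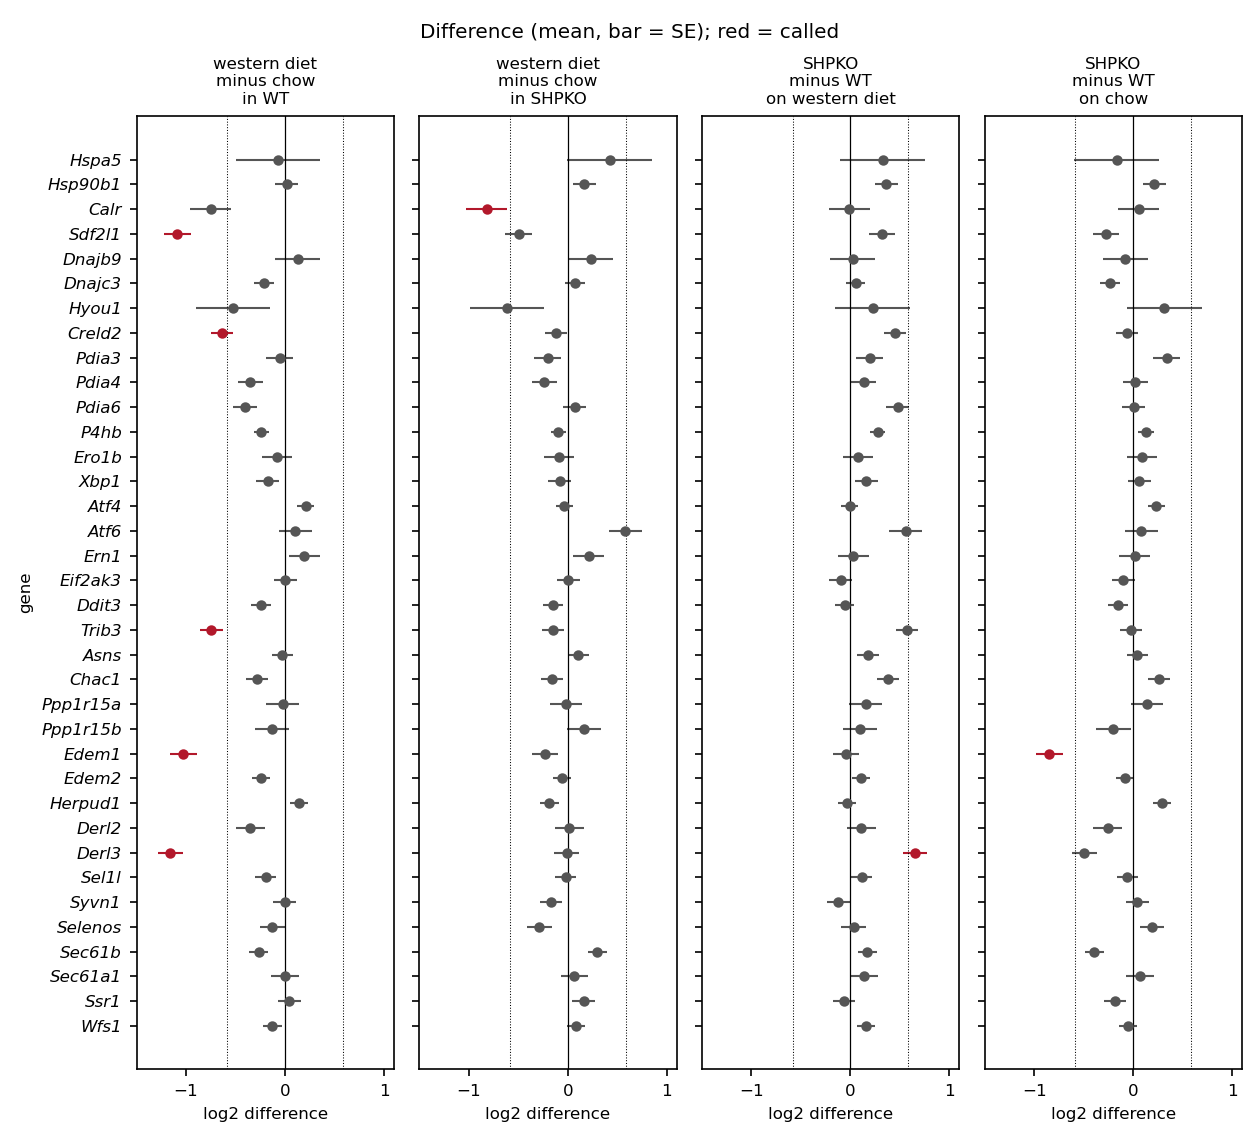
Differences in log2 signal of the 36 members tested (points, with bars for the standard error of the fit), in 4 panels for the diet comparison in WT, the diet comparison in SHPKO, and SHPKO minus WT on western diet and on chow. Red points are called, dotted lines mark 1.5-fold, and the 5 red points of the diet panel in WT all lie left of 0.

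The ER chaperones and their helpers hold nascent proteins in solution while they fold, and 8 of the 11 listed were tested. Sdf2l1 is an ER-resident partner of the co-chaperones of BiP. Its log2 signal was 10.15, 10.05 and 9.89 in SHPKO on western diet, 9.86, 9.58 and 9.68 in WT on western diet, and, on chow, 10.35, 10.39 and 10.83 in SHPKO and 10.90, 10.67 and 10.82 in WT. Both western diet groups lay wholly below both chow groups, and SHPKO on western diet lay just above WT on western diet. The log2 difference of Sdf2l1 between western diet and chow was -0.50 ± 0.13 in SHPKO (SE of the fit, adjusted p = 0.0496), past that threshold, but at 1.41-fold under the minimum fold. In WT it was -1.09 ± 0.13 and was called (adjusted p = 0.00045, 2.13-fold). The difference between the diet effects, 0.59 ± 0.19, did not pass (adjusted p = 0.17), but was called without SHPKO chow replicate 3 (0.75, adjusted p = 0.030).

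Creld2, a secreted, ER stress-inducible protein with disulfide isomerase activity, moved likewise in WT. It stood at 10.47, 10.53 and 10.72 in SHPKO on western diet, 10.17, 10.09 and 10.10 in WT on western diet, and, on chow, 10.62, 10.52 and 10.95 in SHPKO and 10.83, 10.74 and 10.71 in WT. The 3 arrays of WT on western diet were the lowest of the 12, and the other 3 groups overlapped. The diet difference was -0.12 ± 0.11 in SHPKO (adjusted p = 0.60) and -0.64 ± 0.11 in WT (adjusted p = 0.0056, 1.56-fold). On western diet, Creld2 was higher in SHPKO than in WT by 0.45 ± 0.11, with an adjusted p of 0.036 but at 1.37-fold, and the difference between the diet effects was 0.52 ± 0.16 (adjusted p = 0.15), which was called without SHPKO chow replicate 3 (0.64, adjusted p = 0.026). A second probe of Creld2 gave -0.59 for the diet difference in WT.

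Calr encodes calreticulin, the soluble lectin chaperone of glycoproteins and a calcium store of the ER. Its values were 8.32, 8.09 and 7.77 in SHPKO on western diet, 8.29, 8.17 and 7.76 in WT on western diet, and, on chow, 8.81, 8.69 and 9.14 in SHPKO and 9.02, 9.07 and 8.38 in WT. All 6 arrays on western diet lay below all 6 on chow, and the genotypes overlapped on each diet. The diet difference was -0.82 ± 0.21 in SHPKO (adjusted p = 0.037, 1.76-fold) and -0.75 ± 0.21 in WT (adjusted p = 0.056, 1.68-fold), and the 2 effects differed by -0.07 with a 95% interval of -0.71 to 0.57. The call in SHPKO was lost when any 1 of several arrays was left out, with adjusted p-values of 0.076, 0.051 and 0.14 without SHPKO chow replicate 1, 2 or 3, 0.10 and 0.16 without SHPKO western diet replicate 2 or 3, and 0.054 without WT western diet replicate 2. In WT, Calr was called in 2 such fits, without WT chow replicate 3 (-0.97, adjusted p = 0.0145) and without the array numbered 3 of SHPKO on chow (adjusted p = 0.049).

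**Figure D3:**
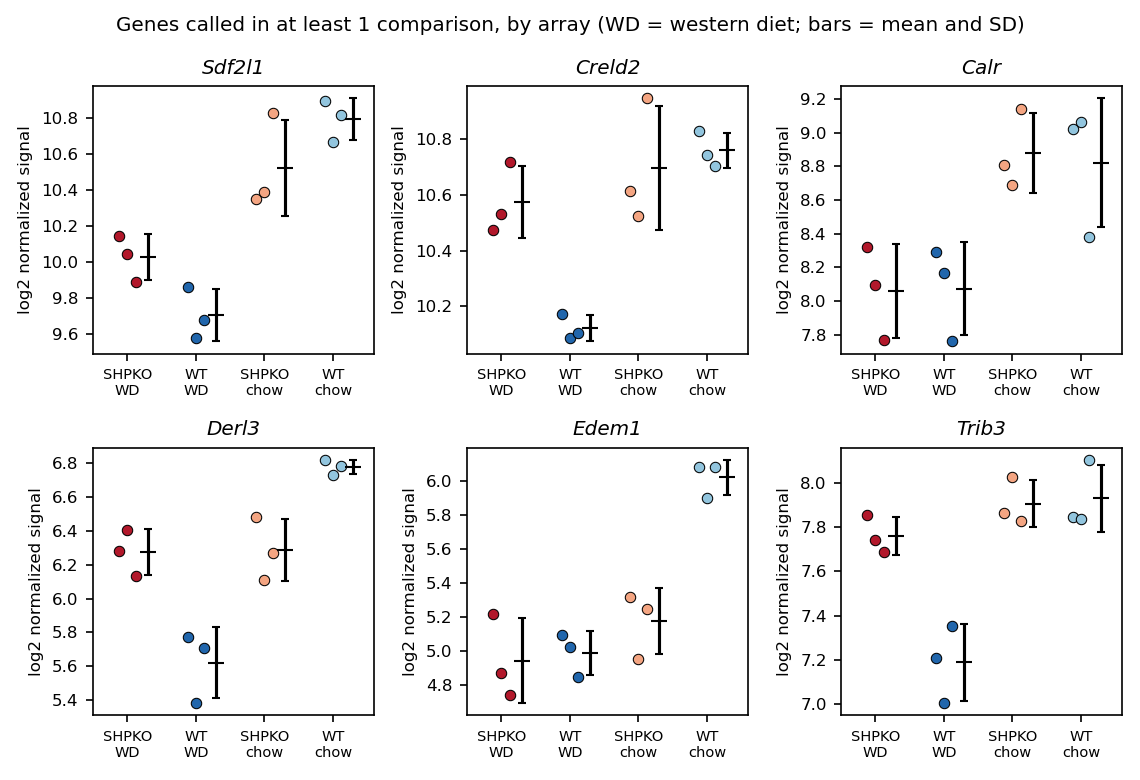
Log2 normalized signal of the 6 members called in at least 1 comparison, with 1 point per array, and a bar for mean and SD, in SHPKO on western diet, WT on western diet, SHPKO on chow and WT on chow. Axes differ between genes and do not start at 0. WT on western diet is the lowest group for Sdf2l1, Creld2, Derl3 and Trib3, Edem1 is high in WT on chow, and Calr is low in both groups on western diet.

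Hspa5 encodes BiP, the HSP70 chaperone of the ER that also holds the sensors inactive. Its 1 probe read 5.81, 6.41 and 7.18 in SHPKO on western diet, 5.33, 6.30 and 6.79 in WT on western diet, and, on chow, 5.77, 5.75 and 6.61 in SHPKO and 5.62, 6.13 and 6.88 in WT. The 4 groups overlapped wholly, and the array numbered 3 was the highest in each. The probe was dim (highest detection p 0.00748), with its lowest arrays near the lowest detected signal of 5.07 to 5.48. It is thus a weak measure of Hspa5 mRNA. With a within-group SD of 0.49 to 0.74, the diet difference was 0.42 ± 0.43 in SHPKO (adjusted p = 0.64) and -0.07 ± 0.43 in WT (adjusted p = 0.95), and its 95% interval in WT, -0.9999 to 0.8583, was wide.

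Among the other chaperones, Hsp90b1, the HSP90 of the ER (GRP94), averaged 12.89 ± 0.18 in SHPKO on western diet, 12.53 ± 0.04 in WT on western diet, 12.72 ± 0.14 in SHPKO on chow and 12.51 ± 0.17 in WT on chow. Its 3 SHPKO arrays lay above the 3 WT arrays on each diet, but the differences of 0.36 ± 0.12 on western diet (adjusted p = 0.12) and 0.21 ± 0.12 on chow (adjusted p = 0.46) did not pass. Dnajc3, the co-chaperone p58IPK, averaged 10.15 ± 0.08 in SHPKO on western diet, 10.09 ± 0.03 in WT on western diet, 10.07 ± 0.08 in SHPKO on chow and 10.31 ± 0.18 in WT on chow, with no call. Hyou1 and Dnajb9, a further HSP70-type chaperone and a J protein, had wide spread between arrays (within-group SD 0.18 to 0.76 and 0.24 to 0.39) and were not called. Hyou1 had a diet difference of -0.62 ± 0.38 in SHPKO and -0.52 ± 0.38 in WT. The probes of Canx, the membrane lectin chaperone, and of Manf, a secreted stress-induced factor, were not detected on any array (lowest detection p 0.212 and 0.0256), so neither could be tested.

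The disulfide isomerases and oxidases form and rearrange disulfide bonds, and 5 of 6 were tested. None passed both criteria in any comparison. Pdia6, an isomerase that also regulates IRE1, averaged 8.92 ± 0.17 in SHPKO on western diet, 8.44 ± 0.14 in WT on western diet, 8.85 ± 0.14 in SHPKO on chow and 8.85 ± 0.11 in WT on chow. WT on western diet was again the lowest group. SHPKO was higher than WT on western diet by 0.48 ± 0.12 (adjusted p = 0.034, 1.39-fold), and the diet difference in WT was -0.40 ± 0.12 (adjusted p = 0.064). A second, dimmer probe of Pdia6 gave -0.14 ± 0.11 for the genotypes on western diet, of opposite sign. P4hb, the classical protein disulfide isomerase, was likewise lowest in WT on western diet, at 13.44 ± 0.08 in SHPKO on western diet, 13.17 ± 0.05 in WT on western diet, 13.54 ± 0.03 in SHPKO on chow and 13.41 ± 0.05 in WT on chow, with 0.27 ± 0.08 for SHPKO against WT on western diet (adjusted p = 0.071). Pdia3 and Pdia4, both isomerases, and the oxidase Ero1b had no adjusted p below 0.05 in any comparison. Over the 5 enzymes, the difference between genotypes on that diet ran from 0.08 to 0.48 and the diet difference in WT from -0.40 to -0.06. The probes of Ero1a, the other ER oxidase, were not detected.

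The 6 sensors and transcription factors showed no call in any comparison. Xbp1 was bright, at 12.62, 12.83 and 12.69 in SHPKO on western diet, 12.36, 12.63 and 12.68 in WT on western diet, and, on chow, 12.64, 12.76 and 12.97 in SHPKO and 12.64, 12.68 and 12.86 in WT. The groups overlapped in every comparison, and the diet difference in WT was -0.18 ± 0.12 (adjusted p = 0.43). The array gives the sum of its mRNA forms and does not tell the spliced from the unspliced one.

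Atf4, whose protein is controlled largely at translation, read 11.92, 11.78 and 11.998 in SHPKO on western diet, 11.94, 11.85 and 11.92 in WT on western diet, and, on chow, 11.96, 11.88 and 11.96 in SHPKO and 11.78, 11.63 and 11.69 in WT. WT on chow was the lowest group without overlap with SHPKO on chow or WT on western diet. The differences were 0.23 ± 0.09 for SHPKO against WT on chow (adjusted p = 0.23) and 0.21 ± 0.09 for the diet in WT (adjusted p = 0.19). A second, dimmer probe of Atf4 gave -0.55 ± 0.13 for the diet in SHPKO, which passed the adjusted p (0.029) and not the minimum fold, and -0.20 ± 0.13 for the diet in WT, of opposite sign to the brighter probe.

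Ddit3 encodes CHOP, a pro-apoptotic factor induced by ATF4. It read 8.97, 8.83 and 8.77 in SHPKO on western diet, 8.85, 8.80 and 9.09 in WT on western diet, and, on chow, 9.05, 9.03 and 8.93 in SHPKO and 9.25, 9.15 and 9.07 in WT. The arrays spanned under 0.5 on the log2 scale, and the diet difference was -0.15 ± 0.10 in SHPKO (adjusted p = 0.44) and -0.25 ± 0.10 in WT (adjusted p = 0.18). Ern1 averaged 9.56 ± 0.25 in SHPKO on western diet, 9.53 ± 0.20 in WT on western diet, 9.35 ± 0.18 in SHPKO on chow and 9.33 ± 0.21 in WT on chow, and Eif2ak3 moved by no more than 0.10 in any comparison.

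Atf6 stood at the edge of detection. It was detected on 3 arrays of SHPKO on western diet, 0 of WT on western diet, 1 of SHPKO on chow and 0 of WT on chow, and so passed the filter through 1 group. Its values were 5.46 ± 0.07 in SHPKO on western diet, 4.90 ± 0.27 in WT on western diet, 4.88 ± 0.19 in SHPKO on chow and 4.80 ± 0.32 in WT on chow. SHPKO against WT on western diet gave an adjusted p of 0.087, at least 1.11-fold higher when the undetected group is set to no less than the lowest detected signal. Without WT western diet replicate 2 the adjusted p was 0.049, with WT still not above background and so with no exact size.

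Of the 5 genes listed under PERK and ATF4, Trib3, a pseudokinase that restrains Akt and is induced by ATF4 and CHOP, was called. It read 7.86, 7.74 and 7.69 in SHPKO on western diet, 7.21, 7.003 and 7.35 in WT on western diet, and, on chow, 7.86, 8.03 and 7.83 in SHPKO and 7.85, 7.84 and 8.11 in WT. The 3 arrays of WT on western diet lay below the other 9. The diet difference was -0.15 ± 0.11 in SHPKO (adjusted p = 0.52) and -0.74 ± 0.11 in WT (adjusted p = 0.0022, 1.67-fold). SHPKO was higher than WT on western diet by 0.57 ± 0.11 (adjusted p = 0.0087), just under the minimum fold at 1.49-fold, and it was called without WT western diet replicate 1 or 3 or SHPKO western diet replicate 3 (0.59, 0.66 and 0.61). The difference between the diet effects, 0.60 ± 0.16, had an adjusted p of 0.087.

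Chac1, an enzyme that degrades glutathione, averaged 10.56 ± 0.10 in SHPKO on western diet, 10.18 ± 0.06 in WT on western diet, 10.72 ± 0.10 in SHPKO on chow and 10.46 ± 0.22 in WT on chow. SHPKO differed from WT by 0.38 ± 0.11 on western diet (adjusted p = 0.076) and by 0.26 ± 0.11 on chow (adjusted p = 0.32), short of the threshold. Asns, asparagine synthetase, averaged between 11.92 and 12.10 in the groups. Asns and the phosphatase subunits Ppp1r15a and Ppp1r15b, which restore translation by dephosphorylating eIF2alpha, had no adjusted p below 0.05 in any comparison.

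ERAD, which marks, extracts and degrades misfolded proteins, had 8 of 9 members tested. Derl3, a derlin of the retrotranslocation machinery, was the 1 member called for the difference between the diet effects. It read 6.28, 6.41 and 6.14 in SHPKO on western diet, 5.77, 5.38 and 5.70 in WT on western diet, and, on chow, 6.48, 6.11 and 6.27 in SHPKO and 6.82, 6.73 and 6.78 in WT. WT on western diet was lowest and WT on chow highest, each apart from all other arrays, and the SHPKO groups overlapped between them. The 1 probe of Derl3 was dim (highest detection p 0.00748). Its WT western diet arrays lay near the lowest detected signal of the arrays (5.07 to 5.48). The diet difference was -0.01 ± 0.12 in SHPKO (adjusted p = 0.97) and -1.16 ± 0.12 in WT (adjusted p = 0.00016, 2.23-fold), and the test of the difference between them gave 1.15 ± 0.18 (adjusted p = 0.0027). SHPKO against WT was 0.65 ± 0.12 on western diet (adjusted p = 0.0070, 1.57-fold) and -0.49 ± 0.12 on chow (adjusted p = 0.058). The call on western diet was lost without WT western diet replicate 2, where the difference was 0.54 (adjusted p = 0.035), and a call on chow appeared without SHPKO chow replicate 1 (-0.59, adjusted p = 0.045).

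Edem1, a lectin that helps route glycoproteins to degradation, was low on the array. It read 5.22, 4.87 and 4.74 in SHPKO on western diet, 5.10, 5.02 and 4.85 in WT on western diet, and, on chow, 5.32, 4.95 and 5.25 in SHPKO and 6.08, 5.90 and 6.08 in WT. It was detected on 0 arrays of either western diet group, 2 of SHPKO on chow and 3 of WT on chow, and so passed the filter through WT on chow alone. WT on chow stood above the other 9 arrays. Edem1 was at least 1.63-fold lower on western diet in WT (adjusted p = 0.00082), and lower in SHPKO than in WT on chow by -0.84 ± 0.14 (adjusted p = 0.0031, 1.80-fold). The difference between its diet effects was not called (adjusted p = 0.054), and was called without SHPKO western diet replicate 3 (adjusted p = 0.038). No size is given, since both western diet groups were not above background. Without the members that passed through 1 group only, 4 of 34 members were lower in WT on western diet and 0 of 34 differed between genotypes on chow, where 7 of the 34 had an unadjusted p below 0.05.

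Edem2, which trims mannose at the start of ERAD, averaged 12.43 ± 0.06 in SHPKO on western diet, 12.32 ± 0.15 in WT on western diet, 12.48 ± 0.08 in SHPKO on chow and 12.57 ± 0.06 in WT on chow at its brightest probe, with a diet difference of -0.24 ± 0.09 in WT (adjusted p = 0.15). Its 3 other kept probes gave -0.46, -0.81 and -0.88 for the diet in WT, and the last 2 were called when every probe was fitted on its own (adjusted p = 0.016 and 0.015). The probe at -0.88 was also called with the diet in SHPKO (-0.81, adjusted p = 0.021). Averaged over its kept probes, Edem2 had -0.60 in WT and was called (adjusted p = 0.011). Herpud1, a stress-induced scaffold of the ERAD ligase, averaged 12.91 ± 0.16 in SHPKO on western diet, 12.94 ± 0.05 in WT on western diet, 13.09 ± 0.08 in SHPKO on chow and 12.80 ± 0.05 in WT on chow. Its difference of 0.29 ± 0.09 between genotypes on chow did not pass (adjusted p = 0.16). Sel1l and Syvn1, the core of the HRD1 ligase, Derl2 and Selenos had no adjusted p below 0.05 in any comparison, and Derl1 was not detected (lowest detection p 0.016, the nearest of the probes outside the rule).

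**Figure D4:**
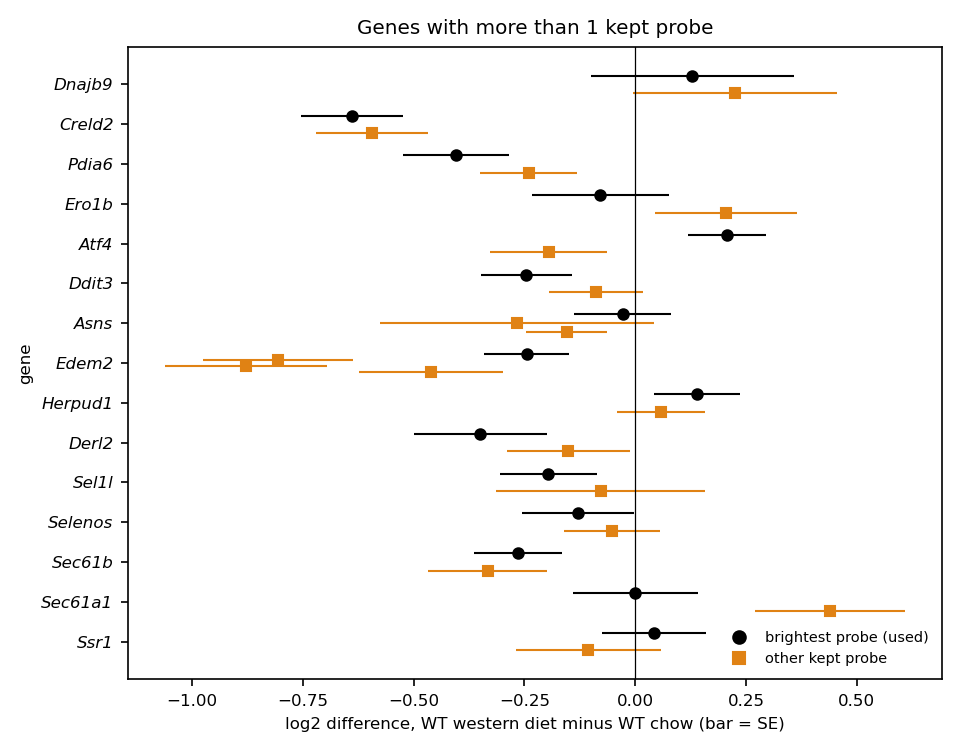
Diet difference in WT (western diet minus chow, log2 signal, bars for the standard error) at each kept probe of the 15 members with more than 1, with black circles for the brightest probe and orange squares for the others. Edem2 shows 3 probes further left than its brightest one, and Atf4, Ero1b and Ssr1 have probes on both sides of 0.

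The 4 genes of the translocon and ER membrane were not called. Sec61b, a subunit of the protein-conducting channel, averaged 10.57 ± 0.12 in SHPKO on western diet, 10.40 ± 0.06 in WT on western diet, 10.27 ± 0.12 in SHPKO on chow and 10.66 ± 0.09 in WT on chow. On chow its SHPKO arrays lay below the WT arrays, a difference of -0.39 ± 0.10 that just missed the threshold (adjusted p = 0.051), and its second probe gave -0.56 ± 0.13 there (adjusted p = 0.039 over all probes, under the minimum fold). Its diet difference was 0.30 ± 0.10 in SHPKO and -0.26 ± 0.10 in WT. Neither passed (adjusted p = 0.10 and 0.14), and the difference between them, 0.56 ± 0.14, had an adjusted p of 0.055 and was called without SHPKO western diet replicate 1 (0.63, adjusted p = 0.043). Wfs1, a membrane protein mutated in Wolfram syndrome, in which beta cells are lost, averaged 9.95 ± 0.05 in SHPKO on western diet, 9.79 ± 0.07 in WT on western diet, 9.87 ± 0.14 in SHPKO on chow and 9.92 ± 0.09 in WT on chow. Sec61a1 and Ssr1, of the channel and its associated complex, had differences between -0.18 and 0.16 at their brightest probes. A second, dimmer probe of Sec61a1 gave 0.61 ± 0.17 for SHPKO against WT on chow (limma, adjusted p = 0.082 over all probes). It gave 0.44 ± 0.17 for the diet in WT and -0.62 ± 0.24 for the difference between the diet effects, and was not called.

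**Figure D5:**
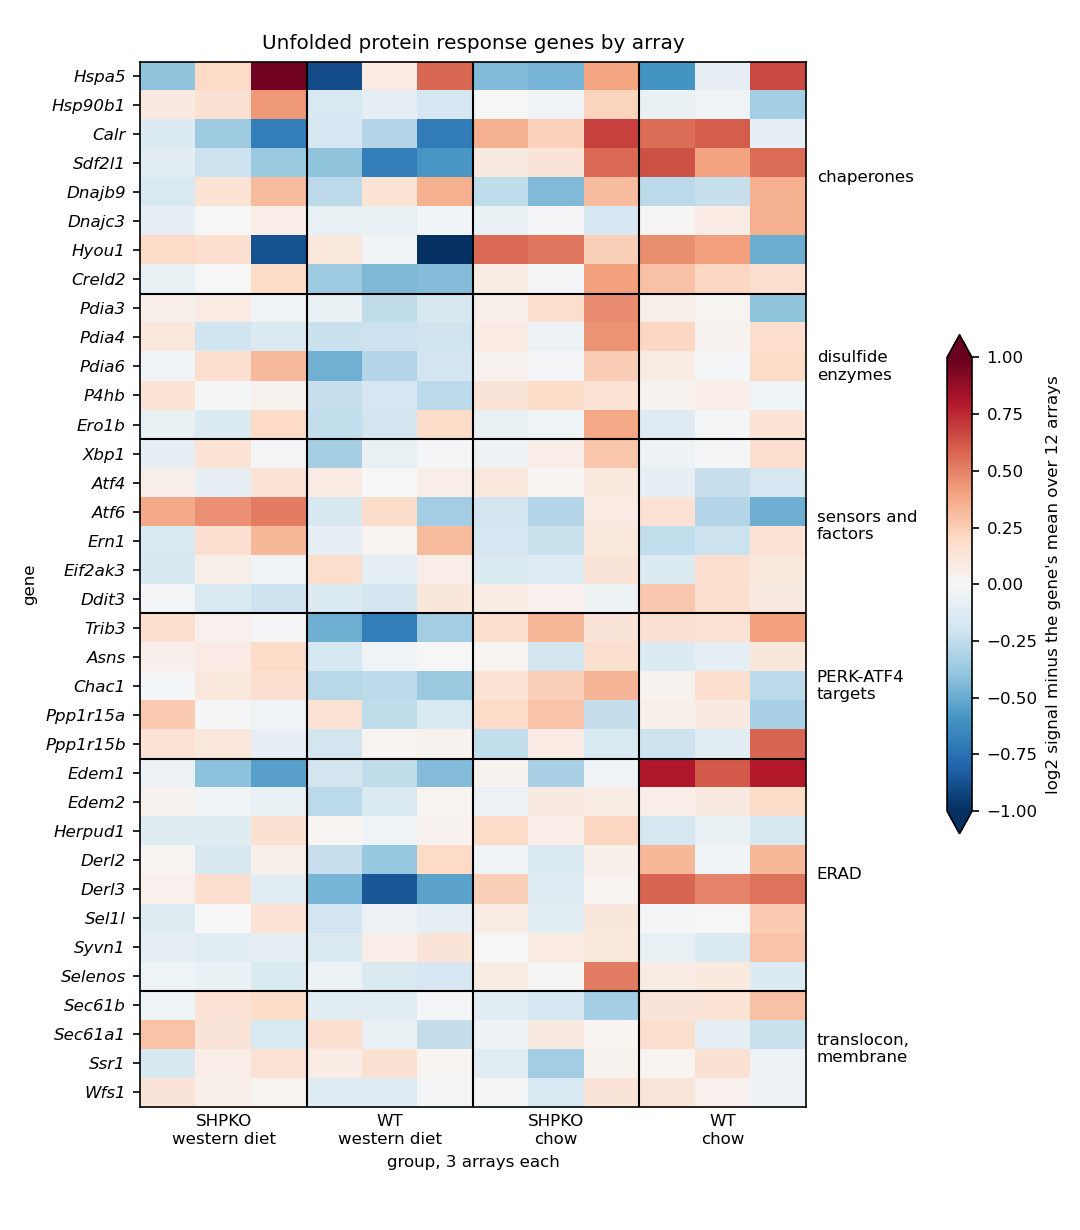
Log2 signal of the 36 members on each of the 12 arrays, minus the gene's mean over all 12, in blocks by role and by group (SHPKO on western diet, WT on western diet, SHPKO on chow, WT on chow). Sdf2l1, Creld2, Trib3 and Derl3 are blue in WT on western diet, Edem1 is red in WT on chow, and Hspa5 and Hyou1 vary more between the arrays of a group than between groups.

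Further genes of the same pathways, not among the 41, were counted by role. Of 23 further ER chaperones and isomerases, 2 were lower on western diet in WT and 0 higher (8 had an unadjusted p below 0.05), where 1.48% of all genes were lower and 1.25% higher. Fkbp11, a prolyl isomerase of secretory cells, stood at 10.74 ± 0.20 in WT on western diet and 11.47 ± 0.15 in WT on chow, a difference of -0.73 ± 0.13 (adjusted p = 0.0072), and Qsox1, a sulfhydryl oxidase, differed by -0.70 ± 0.15 (adjusted p = 0.016). Of 27 translocon, signal peptidase and oligosaccharyltransferase genes, 1 was lower in that comparison, Spcs3, a signal peptidase subunit (-0.59 ± 0.15, adjusted p = 0.041). None of the 3 lists, the third being 21 further ERAD genes, had a call in another comparison, and the ERAD list had none in WT either. In those comparisons 2 to 7 genes of a list had an unadjusted p below 0.05. Of 32 secretory pathway genes linked to XBP1 and ATF6, 0 were called in any comparison (1 to 5 had an unadjusted p below 0.05).

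Of 28 further targets of ATF4 and the integrated stress response, 2 were lower and 1 higher on western diet in WT, beside the same 1.48% and 1.25% of all genes. On western diet 2 were higher in SHPKO (1.95% of all genes), and on chow 2 were higher (0.901%) and 2 lower (1.21%). For the difference between the diet effects 1 was higher (1.49%) and 1 lower (0.586%). Nupr1, a stress-induced chromatin protein, averaged 12.61 ± 0.08 in SHPKO on western diet, 11.99 ± 0.05 in WT on western diet, 12.48 ± 0.12 in SHPKO on chow and 12.69 ± 0.12 in WT on chow, and like Trib3 it was lowest in WT on western diet. It was lower with the diet in WT (-0.70 ± 0.09, adjusted p = 0.0010), higher in SHPKO on western diet (0.63 ± 0.09, adjusted p = 0.0012), and called for the difference between the diet effects (0.84 ± 0.13, adjusted p = 0.0039). Fgf21, a stress-induced hormone, was lower with the diet in WT (-0.97 ± 0.20, adjusted p = 0.016) and lower in SHPKO on chow (-0.96 ± 0.20, adjusted p = 0.021). Cars, a cysteinyl-tRNA synthetase, went the other way, higher with the diet in WT (0.97 ± 0.20, adjusted p = 0.015) and in SHPKO on chow (1.12 ± 0.20, adjusted p = 0.0074), and its diet effects differed by -1.31 ± 0.29 (adjusted p = 0.033). Slc1a4, an amino acid transporter, was higher in SHPKO on western diet (0.62 ± 0.12, adjusted p = 0.0095). On chow, Ddit4, an inhibitor of mTORC1, was higher in SHPKO (0.71 ± 0.10, adjusted p = 0.00084) and Slc6a9, a glycine transporter, lower (-0.79 ± 0.14, adjusted p = 0.0074). With the diet in SHPKO 0 of the 28 were called (4 had an unadjusted p below 0.05).

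Markers of other cells moved along with these comparisons. With western diet in WT, where 5 members were lower, 10 of 29 acinar markers were lower and 0 higher, with a median of -0.31, and the summed acinar signal did not overlap between the diets. In that comparison 4 of 4 erythroid markers were lower too, with summed signals of 2151 to 2864 on western diet and 10304 to 11379 on chow. In SHPKO on western diet, where Derl3 was higher than in WT, 6 of 6 B and plasma cell markers tested were higher, with summed signals of 961 to 1037 in SHPKO and 181 to 186 in WT. Of these, Cd79b, Cd22, Blk and Cd37 were detected on all 3 arrays of SHPKO on western diet and on 0 of WT on western diet or SHPKO on chow, so they were tested through the group where they are high, and their share of the WT sum is not above background. Fcmr was detected on 3, 1 and 0 arrays of these groups, so neither WT on western diet nor SHPKO on chow met the detection rule for it. Mzb1, an ER protein of these cells, was detected on all 3 arrays of both genotypes on western diet and differed by 2.06 ± 0.12 (adjusted p = 1.3e-07). The B cell markers Ms4a1 and Pax5 and the plasma cell markers Jchain, Sdc1, Irf4 and Prdm1 were not detected on any array. In the same comparison the acinar sum was lower in SHPKO, including Pdia2 and Erp27, protein disulfide isomerase relatives of the exocrine pancreas. Pdia2 differed by -2.27 ± 0.14 (adjusted p = 1.7e-07), and Erp27, not detected in SHPKO, was at least 6.06-fold lower (adjusted p = 3.1e-08). On chow, where Edem1 was lower in SHPKO, 28 of 29 acinar markers were lower, with a median of -3.66. Beyond these, the endocrine marker Ghrl and the fibroblast marker Dcn were higher in SHPKO on chow, and the duct marker Muc1 lower. Between genotypes on western diet, Hba-a1, Hbb-bt, Dcn and Irx2 were also higher in SHPKO, and Ghrl and Muc1 lower. With the diet in WT, Ppy, Ghrl, Mzb1 and the macrophage marker Csf1r were also higher, and Irx2 and the macrophage marker C1qa lower. With western diet in SHPKO, where Calr was lower, 8 of 29 acinar markers were lower and 3 higher. There 3 of 4 erythroid markers were lower (median -1.48), as was the duct marker Sox9, and the same 6 B and plasma cell markers were higher. No size is given for the 6, since all but Mzb1 were undetected in SHPKO on chow. For the difference between the diet effects, where Derl3 was called, those 6 were higher again, likewise with no size given. In that test 2 acinar markers were higher (Prss3 and Pdia2) and 3 lower (Reg1, Try10 and Try5). Of the other endocrine markers Irx2 was higher and Ghrl and Ppy lower. The beta cell list had 0 of 10 called in the diet comparison in WT and between genotypes on either diet, where 1 to 3 had an unadjusted p below 0.05, and 1 lower with the diet in SHPKO, the transcription factor Mafa (-0.73 ± 0.17, adjusted p = 0.023). The part of these cells in the differences of the members was not tested.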

How the data were processed

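For every probe the authors deposited an unnormalized, linear intensity on each array with a detection p-value, which ranks it among the array's negative controls. Per the submitters' processing notes these came from BeadStudio, with no version named. A second deposited table of intensity values, background-subtracted and alike in distribution between arrays, was used as an alternative, and the steps behind it are not stated.

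From the raw values, neqc in limma 3.58.1 (R 4.3.3) corrected the background and normalized the arrays (offset 16, background from the deposited detection p-values), giving log2 signal, which was computed here and not by the authors. Of 45281 probes, 34885 carried 1 gene name, 18 several and 10378 none. Probes detected at p under 0.01 throughout the 3 arrays of any group were kept (14756), and the brightest kept probe stood for each of 8875 genes. Limma fitted 4 group means on the 12 arrays with moderated variances and Benjamini-Hochberg adjustment over all 8875 genes; a call needed an adjusted p under 0.05 together with a change of 1.5-fold or more. The number of arrays limits the precision, and array slides are not given here. A bound ("at least") sets an undetected group to no less than the lowest detected signal of each array (5.07 to 5.48).

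On simulated data for SHPKO against WT on chow (8875 genes), calls recovered 37 of the 100 genes shifted by 1.5-fold and 90 of the 100 shifted by 2-fold. The simulated noise was independent between arrays and drawn from the typical fitted spread. These rates therefore need not hold for members with wider spread, such as Hspa5 and Hyou1, or where same-numbered arrays deviate together. Same-numbered arrays counted as paired where the deviations of all 3 pairs correlated above 0.1, which held for SHPKO and WT on western diet (0.147 to 0.421) and for no other 2 groups. For SHPKO against WT on western diet, a fit with the replicate number as a block called the same count of members.

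The members, lists and tests were chosen with earlier results of these data known. Per-array values are given for called members and for Hspa5, Xbp1, Atf4 and Ddit3, group means for up to 2 more members per role by smallest p, and up to 3 called genes per direction of the further lists. Promoter windows come from RefSeq's GRCm38.p6 tables. Alternatives were the processed table, no background correction, other filters, the mean over probes, other fits, and each array left out.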

Additional observations from a re-analysis of the deposited data

Results flagged for a closer look

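Derl3 was the 1 member whose diet effect differed between the genotypes by the test of the difference itself. The difference between the diet effects, that in SHPKO minus that in WT, was 1.15 ± 0.18 on the log2 scale (limma, adjusted p = 0.0027), made up of -0.01 ± 0.12 in SHPKO and -1.16 ± 0.12 in WT. It was called in every setting that tested it, with values of 0.61 to 1.48. Derl3 has 1 dim probe, and its WT western diet arrays lay near the lowest detected signal, where the size depends on the background correction. In the same test 6 of 6 B and plasma cell markers were higher, and 2 of 29 acinar markers were higher and 3 lower. Of those 6, 4 were undetected in the WT western diet and SHPKO chow arrays, and Fcmr was detected on 1 and 0 of them. The part of these markers' cells in the Derl3 difference was not tested. Groups of 3 arrays were not examined for single outlying arrays.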

How the results depend on the processing

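No result changed sign while called. In WT, Sdf2l1, Creld2 and Derl3 were called lower with the diet in every setting, and Trib3 and Edem1 in all but 1 of those that tested them. Edem1 is left out where detection on all 12 arrays is required. Trib3 and Edem1 were lost without background correction, where their differences were -0.56 and -0.44. The setting with no minimum fold only loosens the rule and cannot lose a call. The counts of members called moved as follows. For SHPKO against WT on chow, main count 1, there were 0 without background correction, 0 with detection required on all 12 arrays, 0 without the members that passed through 1 group (added after seeing the data), and 1 to 2 over the fits that leave out 1 array, with 2 without SHPKO chow replicate 1. For SHPKO against WT on western diet, main count 1, there were 0 without background correction, 3 with the processed table (Atf6, Derl3, Trib3), 4 with no minimum fold and 1 to 2 leaving out 1 array. For the diet in SHPKO, main count 1, there were 0 with no filter on detection, 2 with no minimum fold and 0 to 1 leaving out 1 array, and the processed table called Atf6 higher in place of Calr. For the difference between the diet effects, main count 1, there were 2 with the processed table (Derl3, Edem1) and 1 to 3 leaving out 1 array, with 3 without SHPKO chow replicate 3. For the diet in WT, main count 5, there were 4 to 6 in every setting. The cause of these changes was not tested.

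The count over all genes was 187 (SHPKO against WT on chow), 281 (on western diet), 242 (diet in WT), 292 (diet in SHPKO) and 184 (difference between them). Without background correction the first 4 fell to 97, 126, 86 and 127. With detection on all 12 arrays, where 7810 genes were tested, the 5 counts were 105, 137, 160, 139 and 80. With no minimum fold, 441 (SHPKO against WT on western diet), 515 (diet in WT) and 513 (diet in SHPKO) were called.

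Only the genotypes on western diet met the rule for pairing, but some same-numbered arrays of other groups also deviated together. Correlations ran from 0.02 to 0.54 for WT on chow and WT on western diet, and from -0.02 to 0.41 for WT on chow and SHPKO on western diet. Over all 18 same-numbered pairs they were -0.03 to 0.54, and over 36 pairs of other numbers -0.49 to 0.30. The main fit leaves this structure out. With the replicate number as a block, 6 members were called for the diet in WT (Calr added), 2 for the diet in SHPKO (Calr and Hyou1), 2 for the difference between the diet effects (Derl3 and Edem1), 1 for SHPKO against WT on chow and 1 on western diet. Of the values of single named genes, 65 moved by more than the spread, 24 passed the threshold only in another setting, 13 only in the main one, and 2286 of 2388 kept their call. Dim probes, among them Edem1, Atf6, Derl3 and Hspa5, lie near the background, where fold changes depend on its correction.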

Other observations

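Arrays with the same replicate number moved alike for some members of several roles. Hspa5 read highest on the array numbered 3 of every group, at 7.18, 6.79, 6.61 and 6.88 in SHPKO on western diet, WT on western diet, SHPKO on chow and WT on chow. Dnajb9 did too, at 11.89, 11.93, 11.88 and 11.93. Hyou1 read lowest on that array in every group, at 7.30, 6.90, 8.41 and 7.67. Outside the chaperones, Ern1, Ero1b, Asns, Pdia6 and Derl2 also read highest on the array numbered 3 of every group. Fitted with the replicate number as a block, Hspa5 had a diet difference of 0.42 ± 0.15 in SHPKO (limma, adjusted p = 0.11) and -0.07 ± 0.15 in WT (adjusted p = 0.81).

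Some second probes of members gave values that the brightest ones do not show. With all kept probes fitted singly, brightest ones included, 3 of 54 member probes were lower with the diet in SHPKO (247 of 14756 kept probes). They were the brightest probe of Calr and dimmer ones of Edem2 and Ero1b. In WT 8 of 54 were lower (240 of 14756). They were the brightest probes of Sdf2l1, Creld2, Trib3, Derl3 and Edem1, a second one of Creld2 and dimmer ones of Edem2. Edem1 was kept only through WT on chow, the group where it is high. A dimmer probe of Ero1b, an ER oxidase abundant in beta cells, was lower with the diet in SHPKO, at 7.94 ± 0.11 in SHPKO on western diet and 8.67 ± 0.40 in SHPKO on chow (-0.73 ± 0.16, adjusted p = 0.018), while the brightest probe gave -0.09 ± 0.15.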
